A study of Mus musculus with 9 samples.

Results

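The genes described here are the histone genes of the mouse histone clusters, taken as every gene whose symbol begins with Hist1h, Hist2h, Hist3h or Hist4h. The table of the series listed 68 of them among 24060 genes, and they fell into 6 H1, 18 H2A, 19 H2B, 12 H3 and 13 H4 genes. Their levels were measured by RNA-Seq in CD8 T cells of 3 transnuclear (TN) mouse lines, R7-I, R7-II and R7-III, each cloned by nuclear transfer from 1 CD8 T cell specific for the peptide ROP7 of Toxoplasma gondii, so that each line stands for 1 T cell receptor and any other difference between the lines cannot be told apart from it. All mice were Rag2-proficient and on a BALB/c background. Ages and sexes are not given in the sources used here. Before sorting, splenocytes of every group were cultured overnight in IL-2 (10 ng/ml) together with the ROP7 peptide (10 µM). Live CD3+ CD8+ cells that bound the H-2Ld-ROP7 tetramer were sorted to a purity of 90 to 95%. Each clone gave 3 libraries, called biological replicates in the labels, which do not say whether they came from separate mice, so p-values measure the spread between these libraries. In the series' own ranking, affinity for the peptide ran from R7-I through R7-III to R7-II and self-reactivity from R7-III through R7-I to R7-II. Libraries of the same clone correlated at 0.997 to 0.999 over all genes (log2(TPM + 1)).

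Most histone genes of this kind are replication-dependent and supply the proteins that package newly copied DNA. H2A, H2B, H3 and H4 form the core of the nucleosome and H1 binds the linker DNA between nucleosomes. Their transcription peaks in S phase, and most of their mRNAs end in a short stem-loop in place of a poly(A) tail, which the stem-loop binding protein SLBP recognises. The libraries were made from poly(A) RNA, so the values count the histone transcripts that poly(A) selection retained, and the members together held only 0.00882 to 0.0236% of the summed TPM of a library. TPM is a level per transcript length relative to all transcripts of a library and keeps no depth, so counting errors are unknown. The gene copies share much of their sequence and reads that match several copies are divided among them by RSEM, which makes values of single copies uncertain. Sums over each type are therefore given beside them. Fewer cells of a type and less RNA per cell cannot be told apart in such bulk samples.

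The stem-loop is shown because it is the element at which histone transcripts without a poly(A) tail end, and because it is nearly the same in many members. The sense strand of the GENCODE M21 exons (GRCm38, the build mm10 of the deposited values) was searched for the histone stem-loop, a stem of paired bases around a short loop rich in T, and 46 of the 68 members held a match, with 8 different words among them. The arms of the stem are in capitals and the loop in lower case. Types H1, H2A, H2B and H3 shared stems that begin with GGCTCT, and H4 genes carried stems of their own.
3 H1, 10 H2A, 8 H2B and 5 H3 genes, among them Hist1h2bj and Hist1h3b: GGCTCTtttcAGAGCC
6 genes, among them Hist1h2bk and Hist1h3c: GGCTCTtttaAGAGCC
7 H4 genes, among them Hist1h4d and Hist1h4m: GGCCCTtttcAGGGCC
Hist1h4i and Hist2h4: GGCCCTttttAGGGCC
Hist1h4b and Hist1h4j: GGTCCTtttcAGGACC

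The promoters differed by type in the letters searched. RefSeq (GRCm38.p6) gave 63 promoter windows for 62 members, each of 250 bases before the start, while Hist1h2bc, Hist1h3a, Hist1h3f, Hist2h2be, Hist2h4 and Hist3h2bb-ps had no entry. On either strand, CCAAT occurred in 82.5% of these windows and in 33.8% of 32851 windows of all genes, and TATAAA in 46% and 12.4%. The octamer ATTTGCAT occurred in 38.9% of H2A and 41.2% of H2B windows but in none of the H1, H3 or H4 windows, against 1.6% of all windows, and AAACACA in 83.3% of H1 windows, against 6.25% of all. H4 windows held CCAAT in 25%. Motifs were counted separately, so 1 window can hold several, and neighbouring genes read in opposite directions share part of a window. A match is a description of these letters. The windows of an H2B gene that fell in R7-II, an H3 gene that was high in R7-III and an H2A gene that rose in R7-II are shown as examples of the members described below, on the strand of the gene and with the matches in capitals (CCAAT or its complement ATTGG, the letters TATAAA, and ATGCAAAT, which is the octamer on the opposite strand).
Hist1h2bj, chr13:22042948-22043197, plus strand: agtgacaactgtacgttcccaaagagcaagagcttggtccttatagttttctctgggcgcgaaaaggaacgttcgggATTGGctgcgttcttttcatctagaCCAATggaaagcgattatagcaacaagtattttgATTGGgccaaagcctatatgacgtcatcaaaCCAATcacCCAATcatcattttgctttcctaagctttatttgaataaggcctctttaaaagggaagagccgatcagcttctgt
Hist1h3i, chr13:21783398-21783647, minus strand: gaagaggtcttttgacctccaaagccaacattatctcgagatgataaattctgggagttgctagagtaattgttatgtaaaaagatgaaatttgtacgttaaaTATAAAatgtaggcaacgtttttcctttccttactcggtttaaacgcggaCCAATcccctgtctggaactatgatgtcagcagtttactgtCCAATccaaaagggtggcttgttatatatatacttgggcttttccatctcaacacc
Hist3h2a, chr11:58954435-58954684, plus strand: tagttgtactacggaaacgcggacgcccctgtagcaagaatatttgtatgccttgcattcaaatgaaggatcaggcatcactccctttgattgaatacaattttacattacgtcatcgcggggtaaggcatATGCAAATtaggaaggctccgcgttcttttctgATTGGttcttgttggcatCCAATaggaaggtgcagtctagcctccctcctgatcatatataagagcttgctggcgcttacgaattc

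Summed over all types, histone cluster mRNA was highest in R7-III and lowest in R7-II. The 3 libraries of R7-III summed to 236, 202 and 204 TPM, against 108, 123 and 125 in R7-I and 88.2, 110.1 and 97.4 TPM in R7-II. R7-III lay above every library of the other clones, while R7-I and R7-II overlapped. The means were 119 ± 9.40 in R7-I, 98.6 ± 11.01 in R7-II and 214 ± 19.1 in R7-III (TPM, SD, n = 3 each). No test was made of the sums.

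The types did not share 1 order. H3 differed most between the clones, at 23.7, 18.9 and 24.7 in R7-I, 9.31, 16.0 and 12.1 in R7-II and 63.0, 55.3 and 54.8 in R7-III (in TPM), so that the mean of R7-II was 0.216 times that of R7-III and 0.555 times that of R7-I. H4 followed the same order, with 29.2 ± 3.80, 19.2 ± 1.45 and 43.6 ± 7.44 in R7-I, R7-II and R7-III (TPM, SD, n = 3), and no libraries of different clones overlapped for either type. For the linker histones the order was another, since H1 summed to 3.98, 6.97 and 5.65 in R7-I, 10.7, 11.5 and 11.8 in R7-II and 14.6, 15.2 and 13.4 in R7-III (in TPM), which put R7-I below both other clones. H2A summed to 22.9 ± 0.940, 28.3 ± 1.53 and 40.2 ± 5.04 TPM (SD, n = 3), again with R7-I lowest and with no overlap. Its log2 ratio of R7-II to R7-I was 0.31, and 0.12 after each library was divided by a median-of-ratios factor. H2B summed to 38.8 ± 6.51, 27.2 ± 5.53 and 58.0 ± 3.52 TPM (SD, n = 3), and here R7-I and R7-II overlapped.

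**Figure D1:**
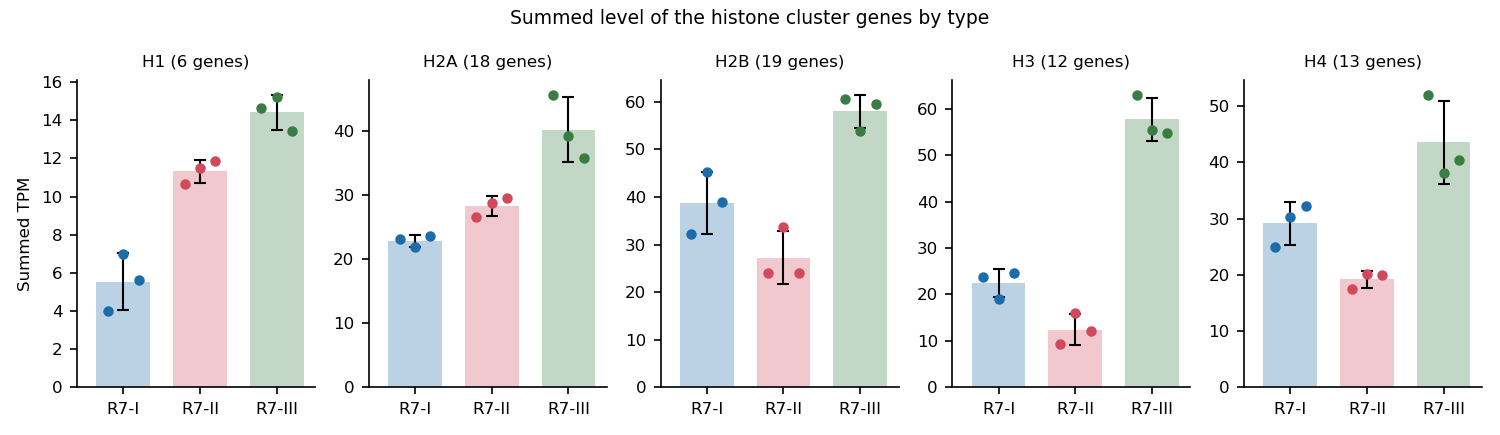
Summed TPM of the cluster genes of each histone type (vertical axis) in R7-I, R7-II and R7-III. Points are libraries, bars means and whiskers SDs (n = 3 each). R7-III was highest for all 5 types, while R7-I was lowest for H1 and H2A, and R7-II for H3 and H4.

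For H1, H2A, H2B and H3, the differences between R7-I and R7-II in these sums depended on the most abundant gene of the type. Without Hist1h2bj, the most abundant H2B gene, the H2B sums were 16.6 ± 4.13 in R7-I, 24.1 ± 5.90 in R7-II and 46.9 ± 2.51 in R7-III (TPM, SD, n = 3). The log2 ratio of R7-II to R7-I thereby changed from -0.51 to 0.54, and their libraries overlapped in both cases. Leaving out Hist2h2aa1 took the H2A ratio of R7-II to R7-I from 0.31 to 0.03 on the log2 scale, with overlap, and leaving out Hist1h1c took that of H1 from 1.03 to 0.51, with overlap. Without Hist1h3a the H3 libraries of R7-I and R7-II overlapped too, with a log2 ratio of -0.49. H4 was the exception, since without Hist1h4i its R7-II libraries still lay wholly below those of R7-I, with a log2 ratio of -0.33. R7-III stayed above R7-I and R7-II for every type when its most abundant gene was left out, with log2 ratios to R7-I between 0.88 and 2.09.

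In single genes, the comparison of R7-II with R7-III, the clones of lowest and highest self-reactivity, gave mostly lower values in R7-II. Of the 51 members with a TPM above 1 in some library, 23 were lower in R7-II and 3 were higher (limma on log2(TPM + 1), adjusted p below 0.01). Over all 11330 genes tested, 18.0% were lower and 35.6% higher at the same threshold, while the members' shares were 45.1% lower and 5.88% higher. The median log2 fold change was -0.89 over the members and 0.12 over all genes. By type, 6 of 11 H3 genes, 6 of 11 H2A genes, 5 of 13 H2B genes, 5 of 12 H4 genes and 1 of 4 H1 genes fell. The 3 that rose were Hist3h2a, Hist3h2ba and Hist2h2be, and all 23 that fell lie in the Hist1 cluster.

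R7-II against R7-I, the clones of lowest and highest affinity, gave calls in both directions. Here 9 members rose and 9 fell, 17.6% of the 51 tested each way, where 40.6% of all genes rose and 15.5% fell. The median was -0.05 over the members and 0.17 over all genes. The genes that fell were 3 of 11 H2A genes (Hist1h2ag, Hist1h2ak and Hist1h2ap), 3 of 11 H3 genes (Hist1h3a, Hist1h3c and Hist1h3g), 2 of 12 H4 genes (Hist1h4b and Hist1h4i) and 1 of 13 H2B genes (Hist1h2bj). Those that rose were 4 H2B genes (Hist1h2bp, Hist2h2bb, Hist2h2be and Hist3h2ba), 2 H2A genes (Hist2h2aa1 and Hist3h2a), Hist1h1c, Hist1h3b and Hist2h4. The count that rose was 5 without the third R7-II library. Dividing each library by a median-of-ratios factor moved the medians of all genes in the R7-II comparisons from 0.17 and 0.12 to -0.0013 and -0.0023, and then 6 members rose and 9 fell in R7-II against R7-I. Quantile normalization gave 5 that rose and 10 that fell.

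R7-III against R7-I gave 14 members that rose and 1 that fell, 27.5% and 1.96% of those tested, where 6.96% of all genes rose and 1.45% fell. The median was 0.73 over the members and 0.04 over all genes. Among the types, 5 of 13 H2B, 4 of 11 H3, 2 of 11 H2A, 2 of 4 H1 and 1 of 12 H4 genes rose. Hist1h2bj was the member that fell. The count that rose rested on few libraries, and it was 7 without the first and 9 without the second R7-I library, and 6 and 8 without the first and the second R7-III library.

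The 3 comparisons share libraries, so their calls are not separate evidence. The filter also favours a clone in which a gene is high. Through R7-III alone 8 members passed it, of which 3 were among the 23 that fell in R7-II against R7-III and 1 was among the 14 that rose in R7-III against R7-I. Hist2h2be passed through R7-II alone and Hist1h3g through R7-I alone. Of the 17 members that did not pass, 5 were listed at 0 in all libraries (Hist1h1t, Hist1h2aa, Hist1h2af, Hist1h2ba and Hist3h2bb-ps). Hist1h2bq and Hist1h2br had the same value in every library, 0.03 to 0.23 TPM. Counted without a test over the 51 that passed, the libraries of R7-II lay wholly below those of R7-III for 28 and wholly above for 3, where 24.3% and 46.4% of the genes tested did so. R7-III lay wholly above R7-I for 24 and wholly below for 1 (29.5% and 12.4% of the genes tested), and R7-II lay wholly above R7-I for 9 and wholly below for 9 (50.6% and 20.6%). Over all 68 members the same counts were 32 and 3, 25 and 1, and 9 and 9.

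**Figure D2:**
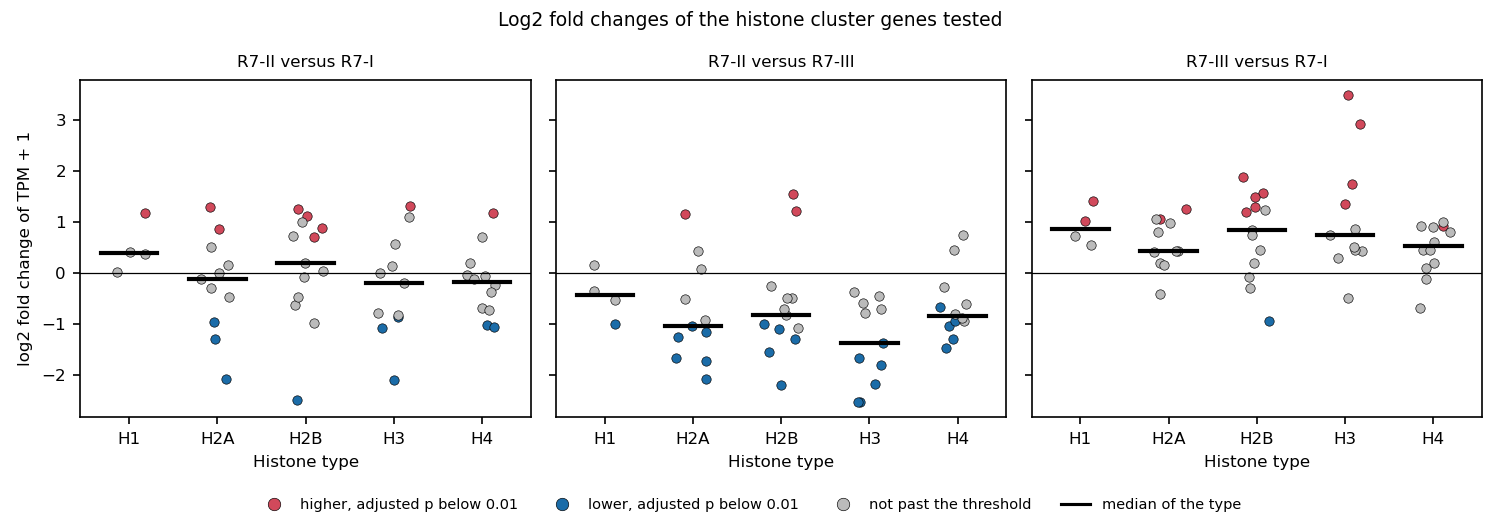
Log2 fold changes of TPM + 1 (vertical axis) of the 51 members tested, by histone type, in the 3 comparisons. Each point is 1 gene, coloured by its call (adjusted p below 0.01), and black lines are medians of the type. In R7-II against R7-III the medians of all 5 types lay below 0, and in R7-III against R7-I all lay above 0.

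S phase genes and other cell types were measured beside these results. Of 38 S phase genes, 31 fell and 1 rose in R7-II against R7-I, 37 fell against R7-III and 34 rose in R7-III against R7-I, with medians of -0.60, -1.05 and 0.46, and Pcna, Mcm3 and Mcm5 moved in these directions. The shares were 81.6% lower and 2.63% higher in the first comparison, against 15.5% and 40.6% of all genes. They were 97.4% lower in the second, against 18.0%, and 89.5% higher in the third, against 6.96%. The CD8 T cell markers (7 genes, Cd8a and Cd3e among them) summed to 1821 to 1851, 2671 to 2692 and 1972 to 2045 TPM in R7-I, R7-II and R7-III. Markers of other cells differed between the clones. The 7 B cell genes summed to 8.04 to 14.8 in R7-I, 32.97 to 69.2 in R7-II and 5.02 to 7.21 in R7-III (in TPM), all 7 higher in R7-II than in each other clone. MHC class II genes (7) summed to 32.4 to 50.3, 112 to 183 and 24.3 to 28.1 TPM, and myeloid genes (9) to 1.5 to 2.11, 20.6 to 81.4 and 2.52 to 4.20 TPM, with Cd14 listed at 0 in R7-I. Erythroid genes (6) summed to 22.1 to 73.3, 1.30 to 15.1 and 8.99 to 25.5 TPM, with Hbb-bs listed at 0 in R7-I and R7-III. CD4 T cell genes (4) gave 3.36 to 4.11, 4.03 to 5.81 and 5.62 to 8.01 TPM and NK cell genes (4) 10.3 to 15.2, 5.66 to 13.0 and 10.6 to 13.0 TPM, with Klra8 at 0 in all clones and Ncr1 at 0 in R7-III. The part of these cells, and that of the S phase difference, in the histone values was not tested.

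H3, which forms the inner core of the nucleosome with H4, held the widest differences. The libraries of R7-I gave Hist1h3a at 12.5, 11.3 and 13.8, those of R7-II at 4.27, 5.82 and 6.05 and those of R7-III at 16.0, 14.2 and 16.4 (TPM). The gene, the most abundant H3 gene here, fell in R7-II against both other clones, by 1.09 on the log2 scale against R7-I (SE 0.11, adjusted p = 1.26e-05) and by 1.38 against R7-III (SE 0.11, adjusted p = 2.45e-06), and R7-III and R7-I did not pass the test (log2 0.29, SE 0.11, adjusted p = 0.102). Levels of Hist1h3b were 0.66, 0 and 0 TPM in the libraries of R7-I, 1.93, 1.22 and 2.83 in those of R7-II and 10.6, 13.3 and 12.9 in those of R7-III. It was listed at 0 in all but 1 library of R7-I and rose in R7-III by a log2 of 3.48 (SE 0.23, adjusted p = 9.22e-06). R7-II lay between the others, with no overlap to either side (log2 1.30, SE 0.23, adjusted p = 0.000489 against R7-I, and log2 -2.17, SE 0.23, adjusted p = 1.43e-05 against R7-III). Within the H3 sum it made up 0 to 2.79% in the libraries of R7-I, 7.64 to 23.4% in R7-II and 16.8 to 24% in R7-III, while Hist1h3a made up 56.0%, 44.1% and 27.0% on average.

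Other H3 genes split R7-II from R7-III. Hist1h3c was measured, in TPM, at 4.87, 3.26 and 4.33 (R7-I), 0, 0.68 and 0 (R7-II) and 5.13, 4.59 and 8.51 (R7-III). It fell in R7-II against R7-I (log2 -2.10, SE 0.24, adjusted p = 2.59e-05) and against R7-III (log2 -2.53, SE 0.24, adjusted p = 7.44e-06). In TPM, Hist1h3i stood at 0.71, 2.04 and 0.56 in R7-I, at 0.54, 0 and 0 in R7-II and at 7.14, 5.38 and 4.79 in R7-III. Here R7-III stood apart, above R7-I (log2 1.74, SE 0.26, adjusted p = 0.00141) and above R7-II (log2 of R7-II against R7-III -2.54, SE 0.26, adjusted p = 1.2e-05). Hist1h3h was listed at 0 in every library of R7-I, and its TPM was 0, 4.07 and 0.94 in R7-II and 11.6, 6.52 and 3.54 in R7-III. The libraries of R7-II and R7-III overlapped for this gene, and its adjusted p for R7-II against R7-III was 0.00858 but above 0.01 under 12 of the 18 alternatives tried for this gene. With R7-I at 0 throughout, no fold is given for R7-III, in which it rose (adjusted p = 0.00307), a call lost in 7 of 18 alternatives (adjusted p up to 0.0148).

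Of the 12 H4 genes tested, 5 fell in R7-II against R7-III (41.7%, against 18.0% of all genes). Against R7-I 2 fell, a share (16.7%) near the 15.5% of all genes. Levels of Hist1h4i were 9.25, 10.8 and 13.2 TPM in the libraries of R7-I, 3.89, 5.68 and 4.75 in those of R7-II and 8.89, 10.5 and 10.7 in those of R7-III. This most abundant H4 gene fell in R7-II against R7-I (log2 -1.07, SE 0.14, adjusted p = 5.72e-05) and against R7-III (log2 -0.94, SE 0.14, adjusted p = 0.00015). Its share of the H4 sum was 37.9% in R7-I, 24.7% in R7-II and 23.6% in R7-III. Hist1h4m fell in R7-II against R7-III, from 7.56 ± 1.41 to 2.59 ± 1.29 TPM (SD, n = 3, log2 -1.30, SE 0.29, adjusted p = 0.00232), and Hist1h4d from 6.03 ± 0.915 to 3.38 ± 0.400 TPM (SD, n = 3, log2 -0.68, SE 0.19, adjusted p = 0.00775). The Hist1h4d call was lost in 10 of 19 alternatives, among them the replicate block (adjusted p = 0.0131) and leaving out any 1 library of R7-II or R7-III (adjusted p up to 0.0349). In R7-III against R7-I these genes did not pass (adjusted p = 0.0491 and 0.043). Hist2h4 was measured, in TPM, at 0.24, 0 and 0 (R7-I), 1.94, 0.85 and 1.61 (R7-II) and 1.46, 0.26 and 0 (R7-III). It rose in R7-II against R7-I (log2 1.17, SE 0.30, adjusted p = 0.00522), while R7-III overlapped with both. This call was lost in 7 of 18 alternatives, among them quantile normalization (adjusted p = 0.0219) and leaving out 1 library, of R7-I (the second or the third) or of R7-II (the first or the third; adjusted p up to 0.0234).

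Among the H2B genes, Hist1h2bj had the largest fall in R7-II against R7-I on the log2(TPM + 1) scale. In TPM, Hist1h2bj stood at 19.2, 24.1 and 23.2 in R7-I, at 3.72, 2.69 and 2.86 in R7-II and at 11.5, 9.81 and 11.8 in R7-III. The 3 clones did not overlap, and of the 51 members tested this gene alone fell in each comparison, R7-II against R7-I (log2 -2.50, SE 0.12, adjusted p = 6.59e-08), R7-II against R7-III (log2 -1.56, SE 0.12, adjusted p = 1.12e-06) and R7-III against R7-I (log2 -0.94, SE 0.12, adjusted p = 0.000461). It made up 57.5% of the H2B sum in R7-I, 11.8% in R7-II and 19.0% in R7-III. The libraries of R7-I gave Hist1h2bk at 3.67, 8.44 and 4.05, those of R7-II at 1.23, 5.08 and 1.15 and those of R7-III at 11.4, 14.1 and 14.2 (TPM). The second library of R7-II stood above its other libraries, and the gene fell in R7-II against R7-III (log2 -2.20, SE 0.37, adjusted p = 0.000411).

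Further H2B genes did not follow the order of Hist1h2bj. Levels of Hist2h2be were 0.66, 0.73 and 0.77 TPM in the libraries of R7-I, 3.10, 2.65 and 2.46 in those of R7-II and 0.54, 0.46 and 0.88 in those of R7-III. Known from olfactory neurons as an H2B gene used outside replication, it rose in R7-II against R7-I (log2 1.12, SE 0.13, adjusted p = 2.53e-05) and against R7-III (log2 1.2, SE 0.13, adjusted p = 1.57e-05). It was tested only because its R7-II libraries passed the filter, so these p-values are no independent support for the rise. Hist3h2ba was measured, in TPM, at 0.78, 1.08 and 1.28 (R7-I), 4.97, 3.94 and 2.88 (R7-II) and 0.34, 1.04 and 0.66 (R7-III). It too rose in R7-II, against R7-I (log2 1.25, SE 0.19, adjusted p = 0.000186) and R7-III (log2 1.55, SE 0.19, adjusted p = 4.42e-05). In TPM, Hist1h2bc stood at 1.59, 4.06 and 2.64 in R7-I, at 3.97, 7.43 and 4.09 in R7-II and at 11.3, 9.22 and 8.64 in R7-III. It rose in R7-III against R7-I (log2 1.55, SE 0.25, adjusted p = 0.00204). R7-II overlapped with R7-I (adjusted p = 0.0245) and lay wholly below R7-III without passing the test (adjusted p = 0.0125). The difference from R7-III passed in 10 of 19 alternatives, among them median-of-ratios scaling (adjusted p = 0.00972) and the replicate block (adjusted p = 0.00674). The libraries of R7-I gave Hist1h2bp at 0, 0 and 0.81, those of R7-II at 0.75, 1.31 and 1.76 and those of R7-III at 3.66, 4.15 and 2.71 (TPM). All 3 comparisons of this low gene passed, with adjusted p of 0.00467, 0.00935 and 0.000712 in the order of the comparisons above (R7-II against R7-III, R7-II against R7-I, R7-III against R7-I), the second with overlapping libraries. The calls of R7-II against R7-I and against R7-III were lost in 14 and 6 of 18 alternatives (adjusted p up to 0.0638 and 0.1).

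H2A, the partner of H2B, was led by 3 genes. Levels of Hist3h2a were 3.89, 4.35 and 4.38 TPM in the libraries of R7-I, 12.4, 12.3 and 10.7 in those of R7-II and 5.84, 3.95 and 4.74 in those of R7-III. It rose in R7-II against R7-I (log2 1.30, SE 0.12, adjusted p = 4.1e-06) and against R7-III (log2 1.14, SE 0.12, adjusted p = 1.05e-05), and it made up 41.9% of the H2A sum in R7-II, 18.4% in R7-I and 12.0% in R7-III. Hist2h2aa1 was measured, in TPM, at 6.03, 4.54 and 4.05 (R7-I), 6.20, 10.8 and 12.6 (R7-II) and 9.12, 6.54 and 5.32 (R7-III). This gene rose in R7-II against R7-I (log2 0.85, SE 0.24, adjusted p = 0.0083), a call lost in 11 of 19 alternatives, among them the replicate block (adjusted p = 0.0175), both scalings and leaving out the second or the third library of R7-I or of R7-II, or the second of R7-III (adjusted p up to 0.106 over all alternatives). Its near-identical neighbour Hist2h2aa2 was listed at 0 in all libraries but the first of R7-II (1.82 TPM) and the first of R7-III (1.40 TPM), so the division of reads between them is uncertain. In TPM, Hist1h2ai stood at 4.39, 3.07 and 4.22 in R7-I, at 4.07, 1.17 and 2.82 in R7-II and at 11.2, 12.1 and 8.57 in R7-III. It fell in R7-II against R7-III (log2 -1.73, SE 0.26, adjusted p = 0.000179) and rose in R7-III against R7-I (log2 1.25, SE 0.26, adjusted p = 0.00843), a call lost in 12 of 19 alternatives, among them leaving out any 1 library of R7-I or R7-III (adjusted p up to 0.0363). The libraries of R7-I gave Hist1h2ap at 2.85, 2.88 and 4.20, those of R7-II at 0 throughout and those of R7-III at 2.32, 1.26 and 3.31 (TPM). It was listed at 0 in R7-II alone and fell there against both others (adjusted p = 9.9e-06 against R7-I and 5.23e-05 against R7-III). Levels of Hist1h2ag were 3.73, 1.64 and 0.83 TPM in the libraries of R7-I, 0, 0 and 0.54 in those of R7-II and 2.81, 4.82 and 4.41 in those of R7-III. Its fall in R7-II passed against R7-I (adjusted p = 0.00391) and R7-III (adjusted p = 0.00018), the first lost in 7 of 18 alternatives, among them leaving out the first or second library of R7-I or of R7-II (adjusted p up to 0.0162).

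H1, the linker histone, was led by Hist1h1c. Hist1h1c was measured, in TPM, at 2.14, 3.24 and 2.79 (R7-I), 7.46, 7.49 and 7.02 (R7-II) and 5.81, 7.22 and 6.42 (R7-III). R7-I was lowest, and the gene rose from it to R7-II (log2 1.17, SE 0.11, adjusted p = 7.88e-06) and to R7-III (log2 1.01, SE 0.11, adjusted p = 0.000288), whereas R7-II and R7-III overlapped (adjusted p = 0.244). In TPM, Hist1h1a stood at 0, 0.52 and 0.31 in R7-I, at 0.41, 0.56 and 1.10 in R7-II and at 2.98, 1.76 and 2.38 in R7-III. It rose in R7-III against R7-I (log2 1.41, SE 0.21, adjusted p = 0.00126) and was lower in R7-II than in R7-III (log2 -1.0, SE 0.21, adjusted p = 0.0015). Hist1h1e, at 1.93 ± 0.570, 2.72 ± 0.491 and 3.77 ± 0.790 in R7-I, R7-II and R7-III (TPM, SD, n = 3), passed no comparison (adjusted p = 0.0896 and 0.0928 for R7-II against the other clones, and 0.0174 between R7-III and R7-I).

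**Figure D3:**
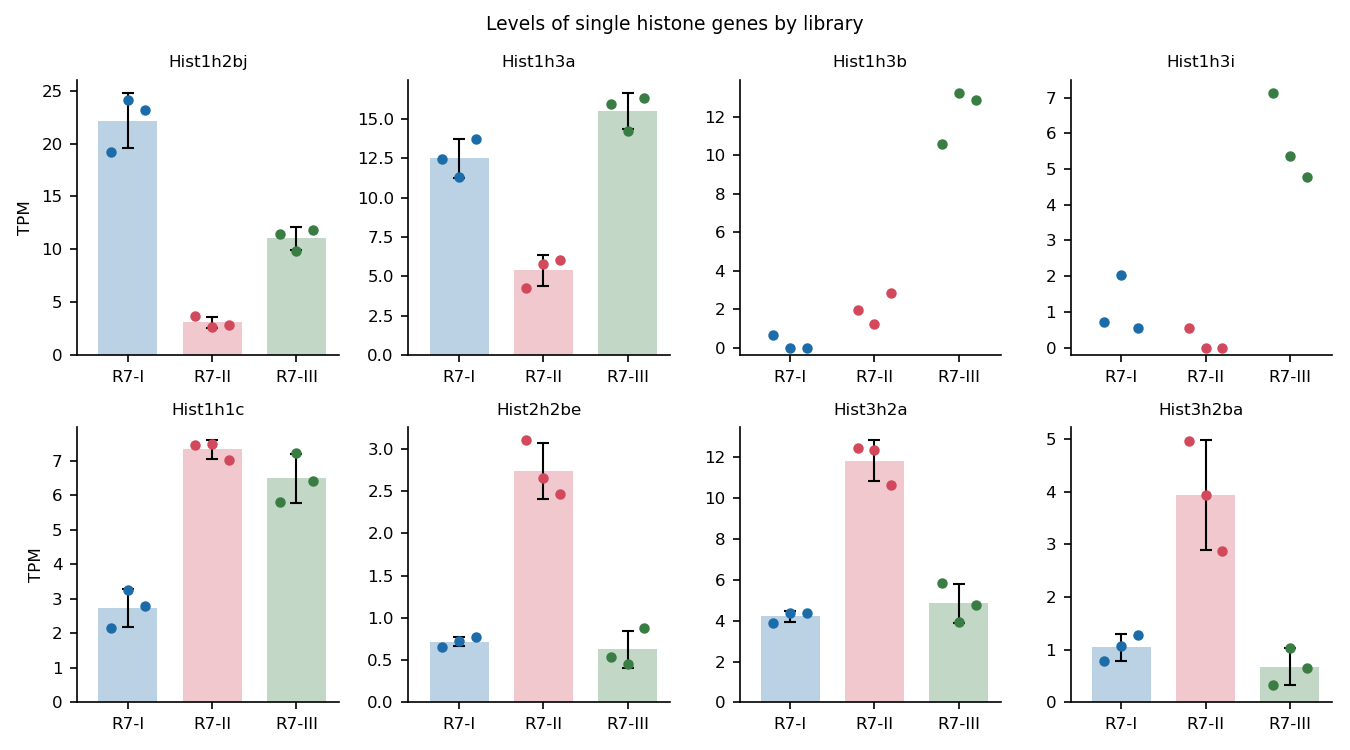
TPM (vertical axis) of 8 members in R7-I, R7-II and R7-III. Points are libraries, bars means and whiskers SDs (n = 3 each). Genes with a library at 0 have points alone. Hist1h2bj was highest in R7-I (19.2 to 24.1 TPM), Hist1h3b and Hist1h3i in R7-III, and Hist2h2be, Hist3h2a and Hist3h2ba in R7-II.

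The order of the clones differed between the gene clusters. The Hist1 cluster (54 genes, chr13:21715763-23934851, mm10) summed to 94.0, 108 and 109 in R7-I, 51.7, 72.1 and 62.5 in R7-II and 204.5, 178 and 179 in R7-III (in TPM). The Hist2 cluster (10 genes, chr3:96219865-96270132) summed to 8.99, 8.62 and 8.86 in R7-I, 19.0, 20.99 and 21.4 in R7-II and 24.5, 17.2 and 18.2 in R7-III (in TPM). The Hist3 cluster (3 genes, chr11:58948920-58956830) summed to 5.25 ± 0.518, 15.7 ± 1.99 and 5.52 ± 0.605 TPM (SD, n = 3). R7-II was thus lowest for Hist1 and highest for Hist3, without overlap to the other clones, and overlapped with R7-III for Hist2. In R7-II against R7-I, 9 of the 40 Hist1 genes tested fell and 3 rose, 4 of 8 Hist2 genes rose and none fell, and 2 of 2 Hist3 genes rose, where 40.6% of all genes rose and 15.5% fell. The share of Hist2 genes that rose (50.0%) was near that of all genes, and Hist2h2be among them passed the filter through R7-II alone. Of the Hist1 genes 7.50% rose and 22.5% fell, and Hist1h3g among those that fell passed the filter through R7-I alone. Hist4h4 (chr6:136801553-136804415) passed no comparison.

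The members were also divided by where their annotated transcripts end. In 22 genes every GENCODE transcript ended within 100 bases after the stem-loop, in 23 genes at least 1 ran further, and no stem-loop was found in 22 genes. Hist1h2bp, with 2 GENCODE transcripts, was set apart because a match within 100 bases of the end was not found in every transcript. The first class summed to 68.0 ± 2.64 in R7-I, 33.2 ± 7.06 in R7-II and 100.8 ± 6.86 in R7-III (TPM, SD, n = 3). The class that runs further summed to 37.2 ± 6.01, 46.3 ± 0.807 and 58.5 ± 4.10 TPM (SD, n = 3). R7-II was therefore the lowest clone in the first class and lay above R7-I in the second, with no overlap in either. In the first class Hist1h2bj alone went from a mean of 22.2 TPM in R7-I to 3.09 TPM in R7-II. Genes of the second class moved both ways between these clones. The mean of Hist3h2a went from 4.21 to 11.8 TPM, that of Hist1h1c from 2.72 to 7.32 and that of Hist3h2ba from 1.05 to 3.93. Hist1h4i went from 11.1 to 4.77 TPM. The classes were not summed without these genes, so the order of R7-I and R7-II cannot be ascribed to either class as a whole. Genes in whose annotated exons the pattern was not found, which does not show that they lack a stem-loop, summed to 13.5 ± 2.35, 17.8 ± 4.15 and 51.0 ± 9.89 TPM (SD, n = 3), with overlap between R7-I and R7-II. In R7-II against R7-I, 7 of the 18 genes tested of the first class fell and 2 rose, and of the 19 tested of the second 1 fell and 4 rose, where 15.5% of all genes fell and 40.6% rose. Those that rose in the second class included Hist3h2a, whose GENCODE transcript runs 1643 bases past the stem-loop, Hist1h1c (840 bases) and Hist3h2ba (169 bases). The gene of this class that fell was Hist1h4i, whose transcript runs 330 bases past the stem-loop. The authors' estimates used RefSeq transcripts, and in the RefSeq annotation of GRCm38 used here these genes end sooner than in GENCODE. Hist3h2a ends at 58955192 against 58956830, Hist1h1c at 23739531 against 23740367 and Hist3h2ba at 58949372 against 58949533. The classes therefore describe GENCODE ends only, and which ends the reads came from was not tested.

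**Figure D4:**
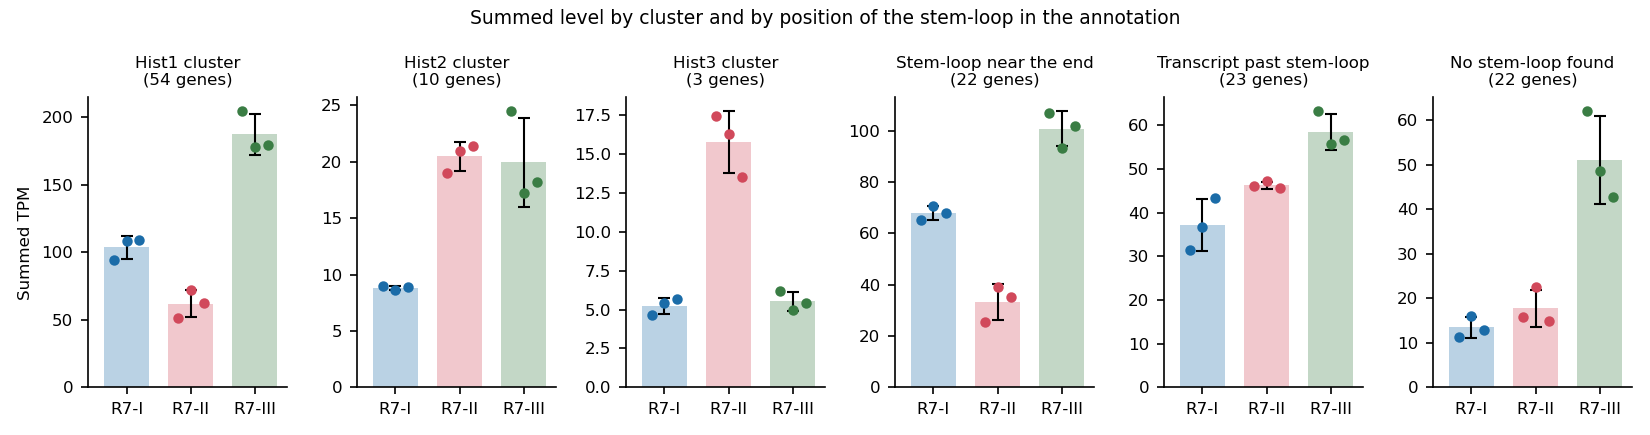
Summed TPM (vertical axis) by gene cluster (3 panels on the left) and by where GENCODE transcripts end relative to the stem-loop (3 panels on the right), in R7-I, R7-II and R7-III. Points are libraries, bars means and whiskers SDs (n = 3 each). R7-II was lowest for the Hist1 cluster and for genes that end near the stem-loop, and highest for the Hist3 cluster.

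Most H2A and H2B genes lie head to head, with 1 promoter region between them. In 13 such pairs the annotated starts were 173 to 306 bases apart, and both genes were tested in 6. In R7-II against R7-III both genes of 3 pairs fell and 1 gene of the other 3 was called. Both genes of 1 pair were called in R7-II against R7-I, with 1 called in 3 and none in 2, and in R7-III against R7-I the numbers were 1, 2 and 3. No pair had calls of opposite direction in any comparison, but few pairs had both genes called. Over all members, 23 fell and 3 rose in R7-II against R7-III, and 14 rose and 1 fell in R7-III against R7-I. In these comparisons called members thus mostly shared a direction whether paired or not. In R7-II against R7-I 9 members rose and 9 fell, but only 1 pair had both genes called. The lack of opposite calls therefore does not show that pairs move together. Hist1h2ag and Hist1h2bj, 270 bases apart and both lower in R7-II than in R7-I, moved the same way in both R7-II comparisons, whereas in R7-III against R7-I only Hist1h2bj fell and Hist1h2ag did not pass (log2 0.80). Hist2h2ac and Hist2h2be, 239 bases apart, took different orders, in that Hist2h2ac averaged, in TPM, 1.07, 1.17 and 3.14 in R7-I, R7-II and R7-III and passed no comparison, whereas Hist2h2be was highest in R7-II.

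Genes that make, process and degrade histone mRNA were listed separately. Slbp, whose product binds the stem-loop, was at 110.8 ± 2.60, 89.6 ± 2.76 and 123.5 ± 1.66 in R7-I, R7-II and R7-III (TPM, SD, n = 3) and fell in R7-II against R7-I (log2 -0.30, SE 0.03) and R7-III (log2 -0.46, SE 0.03). Casp8ap2, a component of the body in the nucleus where histone mRNA is made, fell in R7-II as well (log2 -0.24, SE 0.05, and log2 -0.51, SE 0.05). Npat, which drives histone transcription, passed no comparison (log2 0.09, -0.08 and 0.16), and its direction in R7-II against R7-I turned under quantile normalization. Zcchc6, which adds uridines to RNA ends and takes part in histone mRNA decay, rose in R7-II (log2 0.65, SE 0.06, and log2 0.67, SE 0.06). Of the 14 genes of this list that were tested, 1 rose and 4 fell in R7-II against R7-I, 1 rose and 4 fell against R7-III, and 2 rose in R7-III against R7-I, with list medians of -0.01, -0.07 and 0.05 on the log2 scale. The list's shares were 7.14% higher and 28.6% lower in both R7-II comparisons, against 40.6% and 15.5% of all genes in the first and 35.6% and 18.0% in the second. Under median-of-ratios scaling 10 were called in each R7-II comparison, and under quantile normalization 10 and 9. Without any 1 library of R7-I, the third of R7-II, or the first or second of R7-III, 3 genes were called in R7-II against R7-I, and in R7-III against R7-I none were called without any 1 library of R7-I or R7-III and 1 without the third of R7-II.

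Among the chaperones, Chaf1a, Chaf1b, Asf1b and Nasp, which handle new H3 and H4, fell in R7-II against both other clones. In R7-III against R7-I they passed as higher, but this call was lost for Nasp in 12 of 19 alternatives (adjusted p up to 0.0661, the highest under median-of-ratios scaling), for Asf1b in 5, for Chaf1b in 3 and for Chaf1a in 1. Chaf1a, the large subunit of the assembly factor CAF-1, was at 46.4 ± 3.28 in R7-I, 20.2 ± 3.51 in R7-II and 74.6 ± 3.60 in R7-III (TPM, SD, n = 3), and fell in R7-II against R7-I (log2 -1.17, SE 0.10) and R7-III (log2 -1.85, SE 0.10). Chaf1b, its partner subunit, fell by 0.59 and 1.2 on the log2 scale, Asf1b by 0.84 and 1.51, and Nasp by 0.45 and 0.60. Ubn1, a subunit of the HIRA complex that loads H3 outside replication, rose in R7-II (log2 0.56 and 0.43). Of 19 chaperone genes, 5 rose and 9 fell in R7-II against R7-I (26.3% and 47.4%, against 40.6% and 15.5% of all genes), and 3 rose and 8 fell against R7-III (15.8% and 42.1%, against 35.6% and 18.0%). In R7-III against R7-I 4 rose and 1 fell (21.1% and 5.26%, against 6.96% and 1.45%). The last count rested on few libraries, with 1 gene called without the first R7-I library and 2 without the second or the third R7-III library.

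Histone genes outside the clusters, most of whose mRNAs carry poly(A) tails, moved both ways. H2afz, a variant H2A of gene starts, was at 457.2 ± 16.4, 366.5 ± 3.94 and 555.2 ± 5.92 in R7-I, R7-II and R7-III (TPM, SD, n = 3) and fell in R7-II (log2 -0.32 and -0.60). H2afv, its close relative, rose in R7-II from 5.73 ± 0.659 in R7-I and 8.48 ± 0.258 in R7-III to 20.9 ± 1.43 TPM (SD, n = 3, log2 1.71 and 1.21). H3f3b, which encodes an H3 used throughout the cell cycle, rose in R7-II (log2 0.33 and 0.27), and H2afx, the H2A marked at DNA breaks, fell (log2 -0.31 and -0.48). Of 9 genes tested, 7 rose and 2 fell in R7-II against R7-I (77.8% and 22.2%, against 40.6% and 15.5% of all genes), and 6 rose and 2 fell against R7-III (66.7% and 22.2%, against 35.6% and 18.0%). In R7-III against R7-I 3 rose (33.3%, against 6.96% of all genes), with 1 called when leaving out the first or second library of R7-I or of R7-III. With a median-of-ratios factor, 6 were called in each R7-II comparison, and the directions of H2afy turned to lower in R7-II.

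**Figure D5:**
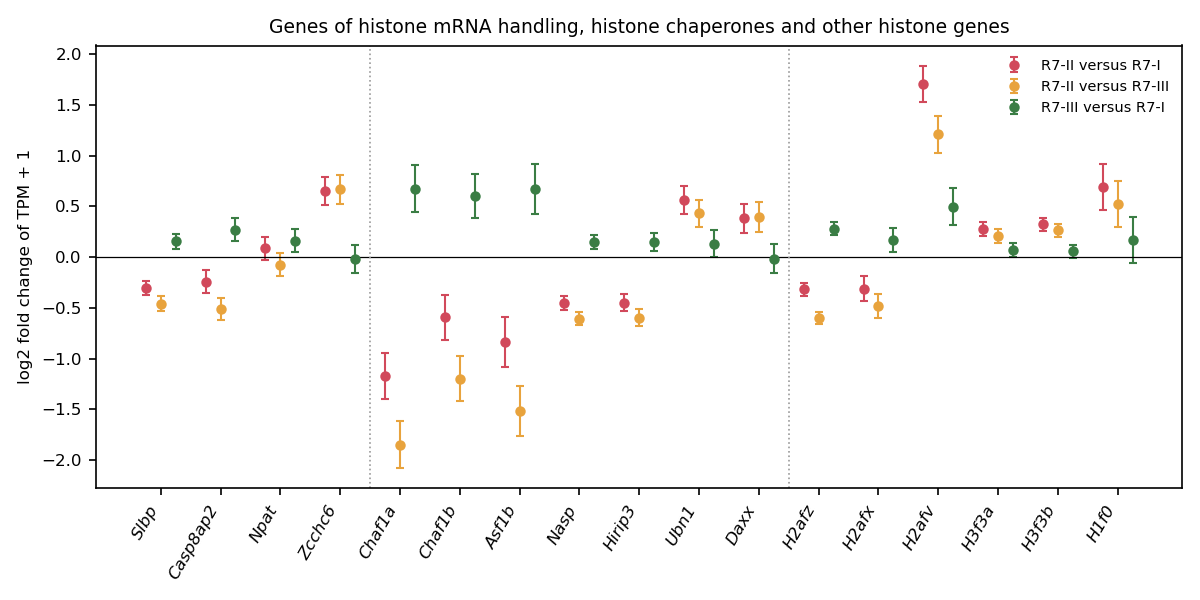
Log2 fold changes of TPM + 1 (vertical axis) with 95% confidence intervals of the limma fit for genes of histone mRNA handling (left), histone chaperones (middle) and histone genes outside the clusters (right) in the 3 comparisons. Slbp, Casp8ap2, the CAF-1 subunits and H2afz lay below 0 in both R7-II comparisons and above 0 in R7-III against R7-I, and H2afv lay above 0 in all 3.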

How the data were processed

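RNA-Seq was made from poly(A) RNA of sorted CD8 T cells (200 ng a sample, TruSeq mRNA library, not strand-specific), 3 libraries for each of 3 clones. The deposited values are TPM for 24060 gene symbols, which the authors estimated with RSEM 1.2.11 on RefSeq transcripts of mm10. The submitters' processing notes also name DESeq2 1.8.1, but counts were not used here. TPM keeps no depth, so the precision is known only from the spread between libraries.

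Samples were grouped by clone as labelled. Because TPM are not counts, log2(TPM + 1) of the 11330 genes with a TPM above 1 in some library was fitted with limma 3.58.1 (R 4.3.3, moderated with a trend) in 1 model over 9 libraries, with Benjamini-Hochberg adjustment over all genes and a threshold of 0.01 (two-sided). A fold change on this scale understates the change of low genes. The script was tested on simulated data. Sums, shares and sequence searches used Python 3.11.15 and pandas 2.3.3, with GENCODE M21 and RefSeq annotation of GRCm38.

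The members, lists and tests were chosen with earlier results of these data known. Members named are the 3 most abundant of each type, the 5 largest changes in each direction of each comparison among those past the threshold, and Hist1h3b and Hist1h3h. From the other lists, genes past the threshold, Slbp, Npat and Casp8ap2 were eligible, with counts for the rest, and of the S phase list the 3 most abundant. Alternatives were pseudocounts of 0.1 and 5, other filters, median-of-ratios scaling, quantile normalization, no trend, a threshold of 0.05, only the clones compared, a replicate block, each library left out, and sums without the most abundant gene.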

Additional observations from a re-analysis of the deposited data

How the results depend on the processing

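Poly(A) selection, reads shared between near-identical copies and TPM without depth limit every value of a single histone gene, and many members lay near 1 TPM, where the filter decides which of them are tested. Over all genes, libraries with the same replicate number showed no clear shared deviation from their clone means. Of the same-numbered pairs, 0 of 9 correlated above 0.1 (range -0.0449 to 0.0888), and 3 of 9 libraries correlated best with their own number. This does not exclude that the libraries were paired. With a replicate block, 17 members were called in R7-II against R7-I, 29 in R7-II against R7-III and 13 in R7-III against R7-I. Over all alternatives, 555 values of sums and counts stayed within the limits set and 69 moved. Where the cause of a change below is not given by the setting itself, the cause was not tested.

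With a TPM of at least 1 required in every library, which tests fewer members, the calls were 7 (4 higher, 3 lower) in R7-II against R7-I, 9 (1 higher, 8 lower) in R7-II against R7-III and 5 (4 higher) in R7-III against R7-I. With no filter they were 11 (5 higher) in R7-II against R7-I, and 9 were higher in R7-III against R7-I. Quantile normalization gave 5 higher in R7-II against R7-I and 9 higher in R7-III against R7-I. In the last comparison a fit without trend gave 9 calls (8 higher) and a threshold of 0.05 gave 23 (22 higher). Leaving out 1 library gave 12 to 17 calls (5 to 9 higher, 7 to 9 lower), 23 to 28 (3 to 4 higher, 20 to 25 lower) and 7 to 15 (6 to 14 higher, 1 lower) in the 3 comparisons in the order above.

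Of the genes of histone mRNA, 10 were called in R7-II against R7-I under median-of-ratios scaling and under quantile normalization, and 3 with only the 2 clones compared and with the replicate block. In R7-II against R7-III, 10 and 9 were called under these scalings, and in R7-III against R7-I 1 with no filter, median-of-ratios scaling, no trend and the replicate block. Of the chaperones, 3 were called in R7-III against R7-I under quantile normalization and 8 at 0.05. Leaving out 1 library gave ranges of 3 to 5, 4 to 6 and 0 to 2 for histone mRNA genes, 13 to 14, 11 to 12 and 1 to 6 for chaperones, 9, 6 to 8 and 1 to 3 for other histone genes, and 29 to 33, 36 to 37 and 26 to 36 for S phase genes.

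Under median-of-ratios scaling the log2 fold change in R7-II against R7-I became -0.057 for H2afy, -0.14 for Hira, -0.046 for Nap1l4, -0.15 for Rbbp4, -0.090 for Srrt and -0.16 for Sympk, and in R7-II against R7-III -0.12 for H2afy and -0.12 for Supt16. Quantile normalization gave -0.15 for Hira, -0.31 for Lsm11 and -0.17 for Npat in R7-II against R7-I. Each was above 0 without the scaling. The log2 ratio of summed TPM without the most abundant gene was 0.51 for H1, 0.035 for H2A, 0.54 for H2B and -0.33 for H4 in R7-II against R7-I, -0.99 for H1 and -0.85 for H2A in R7-II against R7-III, and 1.5 for H2B, 2.09 for H3 and 0.89 for H4 in R7-III against R7-I. Median-of-ratios scaling gave 0.12 for H2A in R7-II against R7-I, and -0.48 for H1 and -0.47 for the genes that run past the stem-loop in R7-II against R7-III.
Of the 23 members named, 10 kept every call in the alternatives that tested them (Hist1h1c, Hist1h2ap, Hist1h2bj, Hist1h3a, Hist1h3b, Hist1h3c, Hist1h4i, Hist2h2be, Hist3h2a and Hist3h2ba). Hist2h2be passed the filter through R7-II alone, so its kept calls are no independent support for its rise there. Among the named members outside these 10, the call of Hist1h2bp in R7-II against R7-I was lost in 14 alternatives and that of Hist2h2aa1 in 11, with median-of-ratios scaling (adjusted p = 0.0344, limma) and quantile normalization (adjusted p = 0.106) among them. Without the second R7-II library, Hist1h2bk passed in R7-II against R7-I (adjusted p = 0.000652) and R7-III against R7-I (adjusted p = 0.00536). It passed in both with the replicate block as well (adjusted p = 0.00552 and 0.00984).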
